A study of Mus musculus with 12 samples.

Results

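The 36 genes described here carry acetyl-CoA to cholesterol, make fatty acids, and sense, move or store sterols. They were chosen by name, with earlier results of these data known. For sterol synthesis there are 6 genes from acetyl-CoA to isopentenyl diphosphate, 2 that make prenyl diphosphates, 3 that make squalene and lanosterol and 8 from lanosterol to cholesterol. The others are 5 genes of the SREBP system, 4 that move or esterify sterols, 4 of the LXR system and 4 of fatty acid synthesis. All 36 were found among 52355 genes, and all 36 were among the 23729 genes that passed the count filter and were tested. The 12 RNA libraries were made from CD11c cells of inguinal lymph nodes of mice. The healthy group (n = 4 libraries) came from mice with no tumor and no CD40 agonist, the tumor-draining group (n = 4) from nodes draining a subcutaneous KPC tumor without agonist, and the agonist group (n = 4) from nodes draining such a tumor in mice given a CD40 agonist. KPC is the usual name of a genetically engineered mouse model of pancreatic cancer, and CD40 is a receptor through which T cells activate dendritic cells. The sources used here do not give the strain, sex or age of the mice, the dose or timing of the agonist, what the other mice received, how pure the cells were or how many mice stand behind a library. Nothing says that the libraries came from separate mice, so p-values speak only to the spread among these samples, and that spread may be technical.

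Cells build cholesterol from acetyl-CoA through mevalonate, farnesyl diphosphate, squalene and lanosterol. The genes for these enzymes are switched on together by SREBP transcription factors, which leave the endoplasmic reticulum with the escort protein Scap when membrane sterol is low and are held back by Insig proteins when it is high. The LXR nuclear receptors respond to oxidised sterols and late intermediates of the pathway, and raise genes that export sterol, store it or limit its uptake. CD11c marks dendritic cells and some macrophages, both of which take up and recycle membrane lipid.

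Stretches upstream of 4 members are printed because these members moved with the agonist and because 3 of them hold a motif of the SREBP or NF-Y factors, which act together at sterol genes. The choice thus rested partly on the motifs. Of 6 such stretches, those of Cyp51, which holds 0 matches, and Mylip, which holds 3, are not printed, although both genes were lower with the agonist. Each stretch is 200 bases of the strand of the gene, 5′ to 3′, from the RefSeq promoter windows of build GRCm38.p6, placed so that it holds no GENCODE exon, and capitals mark a match to one of the motifs searched. The Hmgcs1 stretch was chr13:119690151-119690350 on the plus strand, that of Insig1 chr5:28071163-28071362 on the plus strand, that of Sc5d chr9:42264301-42264500 on the minus strand and that of Nr1h3 chr2:91195152-91195351 on the minus strand. The first 3 lie upstream of their gene, and the Nr1h3 stretch lies within the span of the gene and outside its exons, before a RefSeq start inside the gene.
Hmgcs1: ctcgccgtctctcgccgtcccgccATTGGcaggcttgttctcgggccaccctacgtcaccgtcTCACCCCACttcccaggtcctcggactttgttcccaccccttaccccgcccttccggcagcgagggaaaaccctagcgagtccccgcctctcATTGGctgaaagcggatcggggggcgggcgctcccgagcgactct
Insig1: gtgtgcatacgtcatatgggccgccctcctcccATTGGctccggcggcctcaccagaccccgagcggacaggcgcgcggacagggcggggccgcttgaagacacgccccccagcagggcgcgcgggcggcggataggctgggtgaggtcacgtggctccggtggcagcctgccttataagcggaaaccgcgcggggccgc
Sc5d: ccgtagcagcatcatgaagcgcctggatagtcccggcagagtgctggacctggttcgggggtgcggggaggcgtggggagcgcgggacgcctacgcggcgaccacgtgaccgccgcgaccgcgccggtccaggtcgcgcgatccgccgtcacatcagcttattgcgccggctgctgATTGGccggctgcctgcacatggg
Nr1h3: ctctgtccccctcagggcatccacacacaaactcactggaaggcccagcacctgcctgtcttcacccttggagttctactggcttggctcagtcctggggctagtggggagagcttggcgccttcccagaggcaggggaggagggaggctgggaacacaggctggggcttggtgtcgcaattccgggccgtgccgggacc

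The motifs searched on both strands were the sterol regulatory element core TCACNCCAC, the NF-Y box CCAAT and the LXR element, a direct repeat of AGGTCA with 4 bases between the repeats and up to 1 mismatch in each. None of the printed matches overlaps another. RefSeq windows, each 250 bases before to 50 after a start, were found for 29 of the 36 members. The NF-Y box was in a window of 24 of the 29 members (82.8%), against 41.1% of 27025 genes with a window and 37.4% of 32851 windows. The element core was in 1 member, Hmgcs1 (3.45%), 137 bases before the start as TCACCCCAC, against 1.44% of genes. The LXR element was in 0 of 29 members, against 2.02% of genes. A match describes letters only, and no match says only that these letters are not in this window. The Hmgcs1 stretch holds the core with an NF-Y box on either side, those of Insig1 and Sc5d hold 1 NF-Y box each, and that of Nr1h3 holds no match.

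Library totals ran from 32578457 to 56242933 estimated counts, with a median of 45364225. The labelled cell type was checked on 8 dendritic cell markers, of which none was at 0 in any group. Their summed level was 23879 to 38267 CPM (counts scaled to the library total as adjusted by TMM) in the healthy group. It was 24092 to 40200.0 in the tumor-draining group and 16266 to 24503 in the agonist group. Most of this sum was Cd74, H2-Ab1 and H2-Eb1, with healthy means of 16032, 6365 and 6319 CPM against 31328 for all 8. The sum therefore says little of the other markers. Each library title begins with a prefix that 1 library of each group shares, and replicates 1 to 4 are these prefixes. Replicates 1 and 2 stood apart from replicates 3 and 4 in all groups: the RNA Malat1 took 1.25% to 2.47% of the counts in the former and 0.418% to 1.15% in the latter, and mitochondrial genes took 2.58% to 4.75% and 1.23% to 2.20%.

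Of the 36 members, 0 passed the test between the tumor-draining and healthy groups, and 9 and 10 passed it where the agonist group was compared with these. Calls are genes whose p in edgeR's quasi-likelihood test, adjusted by Benjamini-Hochberg over all genes tested, was under 0.05. With the agonist, against the tumor-draining group, 7 members fell (Hmgcs1, Idi1, Fdps, Cyp51, Msmo1, Sc5d and Insig1) and 2 rose (Npc2 and Nr1h3). Of all genes tested, 0.830% were called lower, 1.85% higher and 2.68% in either direction. Against the healthy group, 8 members were lower (Idi1, Fdft1, Cyp51, Msmo1, Sc5d, Insig1, Stard4 and Mylip) and 2 higher (Npc2 and Nr1h3), with 2.03% of all genes called lower, 4.25% higher and 6.28% in either direction. The 2 members higher than in the healthy group are near the background share. These comparisons share the agonist libraries. In build GRCm38 as annotated by GENCODE, Nr1h3 spans chr2:91184061-91202834, Npc2 chr12:84754562-84773152, Idi1 chr13:8885501-8892451 and Hmgcs1 chr13:119690379-119708260. Cyp51 spans chr5:4081145-4104746, Sc5d chr9:42251595-42264256 and Insig1 chr5:28071363-28078662. The counts sum all annotated transcripts of a gene, coding or not, including those that retain an intron. The median log2 fold change of the members was -0.22 against the tumor-draining group and -0.26 against the healthy group, where the medians of all genes tested were 0.02 and -0.03. In bulk RNA, fewer cells of a type and less RNA per cell cannot be told apart.

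When the prefix entered the fit as a block, 20 members were called in each of these comparisons. Against the tumor-draining group it called 17 lower and 3 higher, with 6.58% and 6.74% of all genes (13.3% in either direction). Against the healthy group it called 16 lower and 4 higher, with 8.46% and 11.7% of all genes (20.1%). The 3 and the 4 called higher are near these background shares. The agonist libraries lay wholly below the tumor-draining ones in 8 members and wholly above in 2, against 3.40% and 4.86% of all genes. They lay wholly below the healthy ones in 11 members and wholly above in 3, against 4.75% and 7.60%. The 2 and the 3 members wholly above are near the background.

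**Figure D1:**
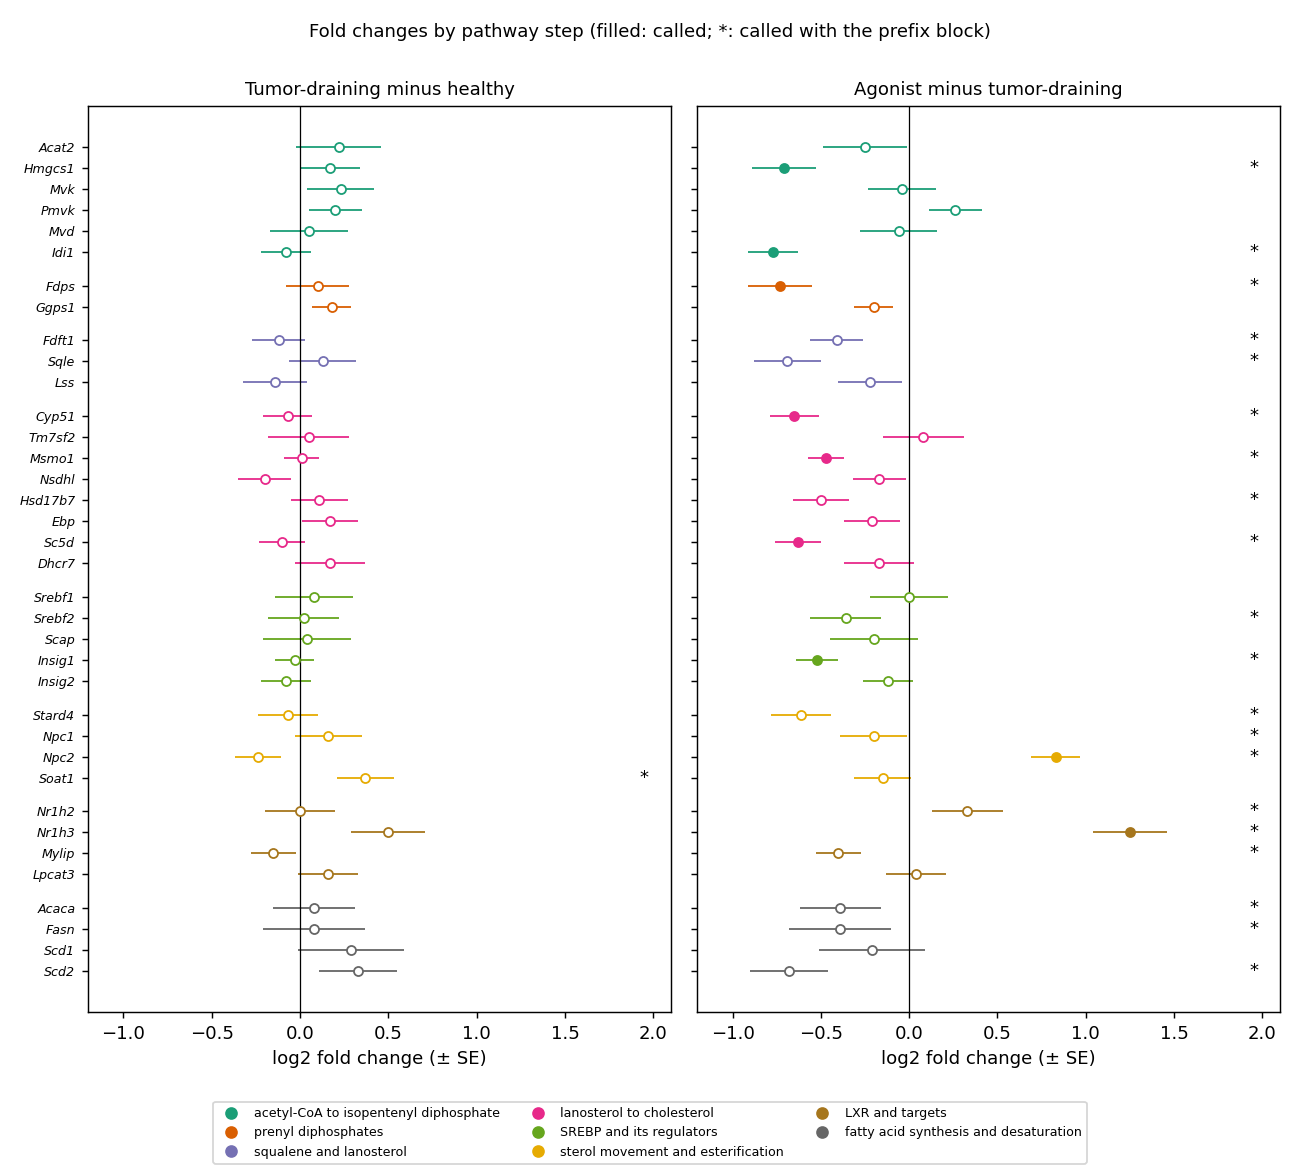
Log2 fold change (± SE, horizontal axis) of each of the 36 members, with genes ordered and coloured by pathway step. The left panel is tumor-draining minus healthy and the right panel agonist minus tumor-draining. Filled points were called without the block, and a star marks a call with the prefix as a block. In the agonist panel, points of the enzymes of sterol synthesis lie mostly left of 0, with Idi1 at -0.77, while Nr1h3 lies farthest right, at 1.25.

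The enzymes from acetyl-CoA to isopentenyl diphosphate did not move as one. Of these 6, 2 fell with the agonist against the tumor-draining group and 1 was lower than in the healthy group. Hmgcs1, the synthase that makes HMG-CoA, stood at 78.7, 92.8, 104 and 98.0 CPM in healthy replicates 1 to 4, at 79.5, 94.2, 122 and 125 in the tumor-draining libraries and at 46.6, 64.7, 71.3 and 74.0 with the agonist. Every agonist library was below all 8 others. Hmgcs1 was 38.9% lower than in the tumor-draining group (log2 fold change -0.71 ± 0.18 SE, edgeR adjusted p = 0.0456). Against the healthy group it was 31.2% lower and missed the threshold (-0.54 ± 0.18, edgeR adjusted p = 0.0912, or 0.000326 with the block). Idi1, the isomerase that makes dimethylallyl diphosphate, stood at 99.3, 86.0, 69.6 and 64.9 CPM in the healthy libraries, at 76.6, 74.8, 67.8 and 83.7 in the tumor-draining ones and at 42.2, 50.3, 40.3 and 44.8 with the agonist. The agonist libraries were again below all 8 others, which overlapped each other. Idi1 fell by 41.3% against the tumor-draining group (-0.77 ± 0.14, edgeR adjusted p = 0.0103) and was 44.5% lower than in the healthy group (-0.85 ± 0.14, edgeR adjusted p = 0.00252).

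Pmvk, the kinase that adds the second phosphate to mevalonate, had 31.5, 29.5, 31.9 and 38.2 CPM in the healthy libraries, 30.0, 35.1, 39.9 and 45.2 in the tumor-draining ones and 40, 48.5, 51.4 and 40.1 with the agonist. Its agonist libraries were all above the healthy ones and overlapped the tumor-draining ones. The log2 difference from the healthy group was 0.46 ± 0.15, past the threshold with the block (edgeR adjusted p = 0.0876 without it and 0.0120 with it) and without the libraries of prefix 4 (0.0350). The 3 remaining enzymes of this stretch passed neither fit. The thiolase Acat2 had group means of 9.94, 11.5 and 9.73 CPM (healthy, tumor-draining, agonist), mevalonate kinase Mvk 11.6, 13.5 and 13.2, and the decarboxylase Mvd 27.8, 28.7 and 27.5. Acat2 has a near-identical neighbour, so its counts may be split between both.

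At the prenyl branch point, Fdps was called lower with the agonist against the tumor-draining group and Ggps1 was not called. Fdps makes farnesyl diphosphate, from which sterols and prenyl groups are built. It stood at 40.8, 46.7, 54.3 and 59.7 CPM in the healthy libraries, 41.8, 47.6, 55.5 and 71.3 in the tumor-draining ones and 26.4, 30.2, 40.5 and 33 with the agonist. All agonist libraries were below all others, the closest being replicate 3. Fdps was 39.8% lower than in the tumor-draining group (-0.73 ± 0.18, edgeR adjusted p = 0.0479) and 35.5% lower than in the healthy group, which missed the threshold (-0.63 ± 0.18, edgeR adjusted p = 0.0553, or 0.000556 with the block). Ggps1, which lengthens farnesyl to geranylgeranyl diphosphate for protein prenylation, had means of 42.1, 47.6 and 41.6 CPM and passed neither fit. Its log2 difference from the tumor-draining group was -0.20 ± 0.11. Whether the changes of Fdps and Ggps1 differ from each other was not tested.

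All 3 enzymes that take farnesyl diphosphate to lanosterol had negative fold changes with the agonist, and 1 was called, against the healthy group. Fdft1, squalene synthase, had 30.6, 38.6, 33.4 and 33.5 CPM in the healthy libraries, 24.7, 32.0, 30.2 and 38.1 in the tumor-draining ones and 18.8, 25.6, 26.2 and 23.3 with the agonist. The agonist libraries were wholly below the healthy ones, and overlapped the tumor-draining ones only through replicate 1 of the latter. Fdft1 was 31.0% lower than in the healthy group (-0.54 ± 0.15, edgeR adjusted p = 0.0476), and its difference from the tumor-draining group was -0.41 ± 0.15 (edgeR adjusted p = 0.208, or 0.0133 with the block). Sqle, the squalene epoxidase and a rate-limiting step of the pathway, had 20.9, 27.2, 29.3 and 27.1 CPM in the healthy libraries, 20.3, 27.0, 31.7 and 35.5 in the tumor-draining ones and 12.8, 18.0, 20.3 and 19.7 with the agonist. In each of the 4 prefixes the agonist library was the lowest of its 3. Sqle differed by -0.69 ± 0.19 from the tumor-draining group (edgeR adjusted p = 0.0671, or 0.000334 with the block) and by -0.56 ± 0.19 from the healthy group (0.101, or 0.000518). Lss, which closes the ring to lanosterol, had means of 22.3, 20.3 and 17.5 CPM and passed neither fit.

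Between lanosterol and cholesterol, 3 of 8 enzymes fell with the agonist against the tumor-draining group, and 3 were lower than in the healthy group. Cyp51, the lanosterol demethylase, stood at 91.9, 72.2, 84.7 and 80.1 CPM in the healthy libraries, 72.4, 68.3, 77.1 and 96.4 in the tumor-draining ones and 40.8, 48.4, 53.6 and 56.9 with the agonist. The agonist libraries lay well below both other groups. Cyp51 fell by 36.5% against the tumor-draining group (-0.65 ± 0.14, edgeR adjusted p = 0.0248) and was 39.3% lower than in the healthy group (-0.72 ± 0.14, edgeR adjusted p = 0.00715). Msmo1, the methylsterol oxidase that acts after it, had 35.6, 32.8, 34.5 and 32.1 CPM in the healthy libraries, 32.0, 33.7, 35.8 and 34.8 in the tumor-draining ones and 26.8, 23.6, 23.8 and 24.1 with the agonist. The SD of Msmo1 was at most 1.62 CPM in any group, the healthy and tumor-draining libraries overlapped, and the agonist libraries were below all of them. It was 27.9% lower than in the tumor-draining group (-0.47 ± 0.10, edgeR adjusted p = 0.0227) and 27.2% lower than in the healthy group (-0.46 ± 0.10, edgeR adjusted p = 0.0140). On the deposited TPM its difference from the tumor-draining group was smaller (-0.28 on log2 of TPM plus 1, limma adjusted p = 0.6), and the agonist libraries (20.9 to 26.1 TPM) overlapped the tumor-draining ones (24.9 to 35.6).

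Sc5d, the desaturase near the end of the pathway, had 30.5, 33.1, 35.7 and 29.8 CPM in the healthy libraries, 24.6, 28.2, 34.6 and 32.9 in the tumor-draining ones and 18.7, 19.9, 17.5 and 21.9 with the agonist. The agonist libraries were below all others, and the healthy and tumor-draining ones overlapped. Sc5d fell by 35.2% against the tumor-draining group (-0.63 ± 0.13, edgeR adjusted p = 0.0204) and was 39.6% lower than in the healthy group (-0.73 ± 0.13, edgeR adjusted p = 0.00386). Hsd17b7, a sterol ketone reductase, had 7.62, 9.13, 10 and 9.22 CPM in the healthy libraries, 8.43, 9.74, 10.1 and 10.7 in the tumor-draining ones and 5.85, 6.66, 6.77 and 8.22 with the agonist. The agonist libraries were all below the tumor-draining ones, but Hsd17b7 missed the threshold (-0.50 ± 0.16, edgeR adjusted p = 0.133, or 0.00726 with the block). It passed with DESeq2 (adjusted p = 0.0429) and on coding transcripts alone (edgeR adjusted p = 0.0438). Nsdhl, the decarboxylating dehydrogenase that works with Msmo1, had means of 17.2, 15 and 13.3 CPM and was called lower than in the healthy group with the block (edgeR adjusted p = 0.183, or 0.0330 with it) and on coding transcripts alone (0.0435). The sterol reductase Tm7sf2 (3.89, 4.03 and 4.26 CPM) and the isomerase Ebp (33.5, 37.6 and 32.4) passed neither fit.

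Dhcr7, the last reductase before cholesterol, also passed neither fit, with means of 10.6, 11.9 and 10.6 CPM. The level of Dhcr7 per length went another way, with mean TPM (abundance scaled by transcript length and library) of 17.7 ± 7.89 (SD, n = 4) in the healthy group, 20.2 ± 6.46 in the tumor-draining group and 31.8 ± 9.25 in the agonist group. The CPM of a gene sums reads of its transcripts, whereas TPM gives short transcripts more weight, so no direction is given for Dhcr7.

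**Figure D2:**
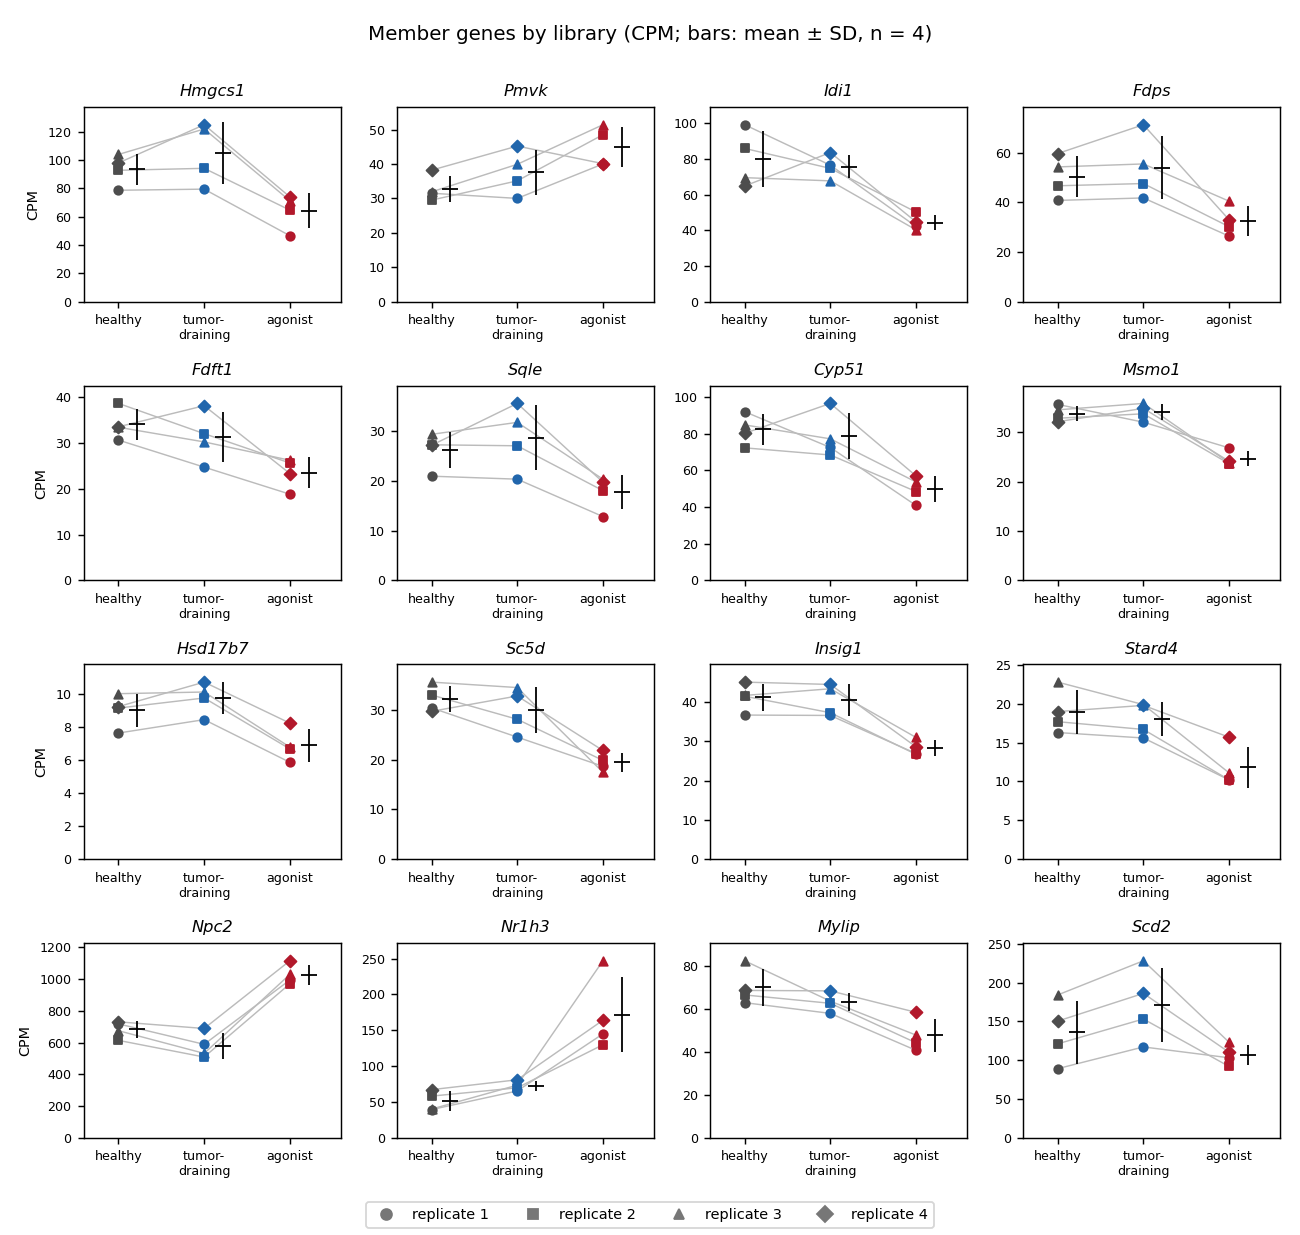
CPM (vertical axis, from 0) of the 16 members with the smallest unblocked p among those called in either fit, in the healthy, tumor-draining and agonist groups; grey lines join libraries of the same prefix, marker shapes are replicates 1 to 4, and black bars are the mean ± SD (n = 4). The agonist libraries of Hmgcs1, Idi1, Fdps, Cyp51, Msmo1, Sc5d and Insig1 lie below all others, and those of Npc2 and Nr1h3 above all others.

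Among the 5 genes of the SREBP system, Insig1 was called lower with the agonist in both comparisons and the other 4 were not called without the block. Insig1 is both a brake on SREBP and itself a target of it. It had 36.7, 41.5, 41.7 and 45.1 CPM in the healthy libraries, 36.6, 37.3, 43.4 and 44.5 in the tumor-draining ones and 26.9, 26.7, 31.0 and 28.6 with the agonist. The healthy and tumor-draining libraries overlapped, and the 4 agonist libraries were all lower. Insig1 fell by 30.1% against the tumor-draining group (-0.52 ± 0.12, edgeR adjusted p = 0.0284) and was 31.4% lower than in the healthy group (-0.54 ± 0.12, edgeR adjusted p = 0.0110). Insig2, its paralog that is not driven by SREBP in most cells, had means of 12.9, 12.1 and 11.2 CPM and passed neither fit.

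Srebf2, which encodes the SREBP that mainly drives sterol genes, ran from 124 to 196 CPM in the healthy group, from 131 to 210.4 in the tumor-draining group and from 101 to 153 in the agonist group. These ranges overlap, yet within each prefix the agonist library was below both others, by 0.19 to 0.57 on the log2 scale against the tumor-draining one. Srebf2 was called only with the block (log2 fold change -0.36, edgeR adjusted p = 0.496 without it and 0.00521 with it, and -0.34 and 0.00475 with it against the healthy group). Srebf1, which encodes the SREBP of fatty acid genes and is a target of LXR, had means of 78.1, 82.6 and 82.4 CPM, with a log2 difference of 0.00 ± 0.22 between the agonist and tumor-draining groups. The escort Scap had means of 91.1, 93.9 and 81.8 CPM and passed neither fit.

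The 4 genes of sterol movement and storage went in different directions. Npc2, the soluble lysosomal protein that hands cholesterol to the membrane protein Npc1, stood at 718, 614, 675 and 731 CPM in the healthy libraries, 589, 509, 532 and 689 in the tumor-draining ones and 995, 971, 1030.2 and 1116 with the agonist. The lowest agonist library was above the highest of the others. Npc2 was 1.77-fold higher than in the tumor-draining group (0.83 ± 0.14, edgeR adjusted p = 0.00567) and 1.5-fold higher than in the healthy group (0.59 ± 0.14, edgeR adjusted p = 0.0172). A transcript that retains an intron held on average 21.4%, 22.3% and 27.0% of Npc2 counts in the healthy, tumor-draining and agonist groups. On coding transcripts alone the difference from the healthy group was 0.40 and missed the threshold (edgeR adjusted p = 0.0731). Npc1 had means of 152, 169.6 and 147 CPM and was called lower than in the tumor-draining group only with the block (-0.21, edgeR adjusted p = 0.0413, and 0.798 without it). Stard4, a cytosolic sterol carrier and SREBP target, had 16.3, 17.7, 22.8 and 19.0 CPM in the healthy libraries, 15.6, 16.7, 19.9 and 19.8 in the tumor-draining ones and 10.2, 10.2, 11.1 and 15.7 with the agonist. Agonist replicate 4 was the highest of its group and alone reached the tumor-draining range. Stard4 was 37.7% lower than in the healthy group (-0.68 ± 0.17, edgeR adjusted p = 0.0248), and its difference from the tumor-draining group was -0.61 ± 0.17 (edgeR adjusted p = 0.0728, or 0.00314 with the block).

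Soat1, which esterifies cholesterol for storage, was the single member called between the tumor-draining and healthy groups, and only with the block, which called 6.30% of all genes (4.02% higher and 2.28% lower). It ran from 136 to 172 CPM in the healthy group, from 159 to 235 in the tumor-draining group and from 153 to 218 in the agonist group. Its tumor-draining library exceeded the healthy one of the same prefix in all 4 prefixes, by 0.21 to 0.56 on the log2 scale (fitted difference with the block 0.36, edgeR adjusted p = 0.0415, and 0.559 without it).

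In the LXR system, Nr1h3 had the largest rise of the 36 members. Nr1h3 encodes LXR alpha, which is abundant in macrophages and liver, and Nr1h2 encodes the widely expressed LXR beta. Nr1h3 stood at 39.3, 58.1, 40 and 67.1 CPM in the healthy libraries, 65.3, 69.7, 73.4 and 80.9 in the tumor-draining ones and 145, 129.8, 247 and 164 with the agonist. All agonist libraries were above all others, with replicate 3 the highest. Nr1h3 was 2.37-fold higher than in the tumor-draining group (1.25 ± 0.21, edgeR adjusted p = 0.00659) and 3.36-fold higher than in the healthy group (1.75 ± 0.22, edgeR adjusted p = 0.000300). The tumor-draining and healthy groups overlapped by a single library (0.50 ± 0.21, edgeR adjusted p = 0.565, or 0.200 with the block). Nr1h2 had means of 50.3, 50.2 and 63.0 CPM and was called higher with the agonist only with the block (0.32 in both comparisons, edgeR adjusted p = 0.0223 and 0.0169).

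Neither Mylip nor Lpcat3, the LXR targets of this group, was called higher. Mylip, the ubiquitin ligase through which LXR limits uptake of lipoprotein cholesterol, had 62.9, 66.5, 82.4 and 68.6 CPM in the healthy libraries, 57.9, 62.6, 63.6 and 68.4 in the tumor-draining ones and 40.7, 44.2, 47.8 and 58.4 with the agonist. Its agonist libraries lay wholly below the healthy ones. Mylip was 31.9% lower than in the healthy group (-0.55 ± 0.13, edgeR adjusted p = 0.0224), and its difference from the tumor-draining group passed with the block (-0.40 ± 0.13, edgeR adjusted p = 0.153, or 0.00723 with it) and on coding transcripts alone (0.0276). Lpcat3, which puts polyunsaturated fatty acids into phospholipids, had means of 26.0, 29.0 and 29.9 CPM and passed neither fit.

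Markers of other cell types moved in the same libraries. Over 8 macrophage markers the summed level was 786 to 1096 CPM in the healthy group, 802 to 1409.6 in the tumor-draining group and 1517 to 2272 with the agonist; 3 of the 8 were called higher with the agonist against the tumor-draining group and 6 against the healthy group, 1 was called lower against the latter, and none was at 0. Over 6 markers of mature or migratory dendritic cells it was 2119 to 3526, 1778 to 3263 and 4533 to 7272, with 3 of 6 called higher in either agonist comparison and 6 of 6 with the block. Type 1 dendritic cell markers summed to 738 to 1159, 497 to 930.2 and 222 to 544 CPM, with 1 of 5 called lower against the tumor-draining group (5 with the block) and 5 of 5 against the healthy group. Of 6 type 2 dendritic cell markers 3 were called lower in either agonist comparison (4 with the block), with Cd209a at means of 253, 183 and 28.7 CPM. Against the healthy group 1 of this list was called higher with the agonist (2 with the block). Sirpa had means of 629.9, 1019 and 972 CPM and Clec4a4 of 4.45, 17.7 and 15.4. Of 5 monocyte markers 2 were called lower in either agonist comparison, in both fits, with Ccr2 at 389.6, 363 and 132 CPM. Of the 8 dendritic cell markers above, 0 were called against the tumor-draining group, and the block called 7 lower. Against the healthy group 1 of them was called lower with the agonist (6 with the block). Over 10 cell cycle genes the sum was 524 to 1120.0, 789 to 1566 and 684 to 1171 CPM, with 0 called in any comparison without the block; with it 5 were higher in the tumor-draining than in the healthy group and 1 was lower with the agonist than in the tumor-draining group. Neutrophil markers, a list of 5, summed to 23.2 to 32.3, 51.1 to 161 and 61.9 to 112 CPM, with 1 called higher in the tumor-draining than in the healthy group (4 with the block) and 2 higher in the agonist than in the healthy group (5 with the block). Of 5 plasma cell markers 2 were called higher than in the healthy group in both other groups (3 with the block). Of 5 T cell markers 2 were called lower in the agonist than in the healthy group (3 with the block, which called 1 higher). In the same comparison 1 of 5 B cell markers was called higher and 1 of 6 stromal and epithelial markers lower, in both fits. Between the tumor-draining and healthy groups, the block called 1 T cell marker higher and 2 lower, and 1 B cell marker higher. Of 5 natural killer cell markers 1 was called higher in either agonist comparison (3 with the block against the tumor-draining group). Of 5 plasmacytoid dendritic cell markers 0 were called without the block, which called 3 lower in either agonist comparison. Against the tumor-draining group the block called 3 macrophage markers higher and 1 lower with the agonist, and 1 B cell marker higher. The part of these shifts in the changes of Nr1h3, Npc2 and the sterol enzymes was not tested.

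No fatty acid synthesis gene was called in any comparison without the block when all transcripts were counted. Scd2, the desaturase of most tissues outside liver, had 89.0, 121, 184 and 150.3 CPM in the healthy libraries, 117, 153, 228 and 186 in the tumor-draining ones and 103, 91.8, 123 and 110.1 with the agonist. The agonist and tumor-draining groups overlapped only through agonist replicate 3 and tumor-draining replicate 1. Its log2 difference between the agonist and tumor-draining groups was -0.68 ± 0.22 (edgeR adjusted p = 0.153, or 0.00446 with the block), and on coding transcripts alone it was called at -0.65 (edgeR adjusted p = 0.0356). Acaca, which makes malonyl-CoA, had means of 84.5, 89.0 and 68.0 CPM, and Fasn, the fatty acid synthase, had 172, 181 and 138 CPM. Both were called lower with the agonist only with the block, Acaca at -0.36 and Fasn at -0.37 against the tumor-draining group (edgeR adjusted p = 0.00681 and 0.00600) and both at -0.30 against the healthy group (0.0125 and 0.0118). Scd1, the paralog of Scd2, had means of 73.2, 89.5 and 77.4 CPM and passed neither fit. Counts of Scd1 and Scd2 may be split between these similar genes.

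The prefix accounted for much of the spread of these genes. Of the variance of log2 CPM over the 12 libraries, a median of 39.4% over members lay between groups and 40.8% between prefixes, and 18 of 36 members had more between prefixes. Scap (93.7%), Srebf1 (92.1%), Npc1 (87.7%) and Fasn (85.4%) varied mostly by prefix. Msmo1 (91.9%), Npc2 (89.4%), Nr1h3 (86.5%) and Insig1 (84.3%) varied mostly by group. Fasn was 0.82 higher on the log2 scale in replicates 3 and 4 than in replicates 1 and 2, and Idi1 was 0.19 lower. Within prefixes, 20 of 36 members were lower in the agonist than in the tumor-draining library in all 4, and 3 were higher in all 4, against 16.4% and 17.2% of all genes. Against the healthy library 18 were lower and 7 higher in all 4, against 19.8% and 18.7%, which for the 7 is near the background.

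**Figure D3:**
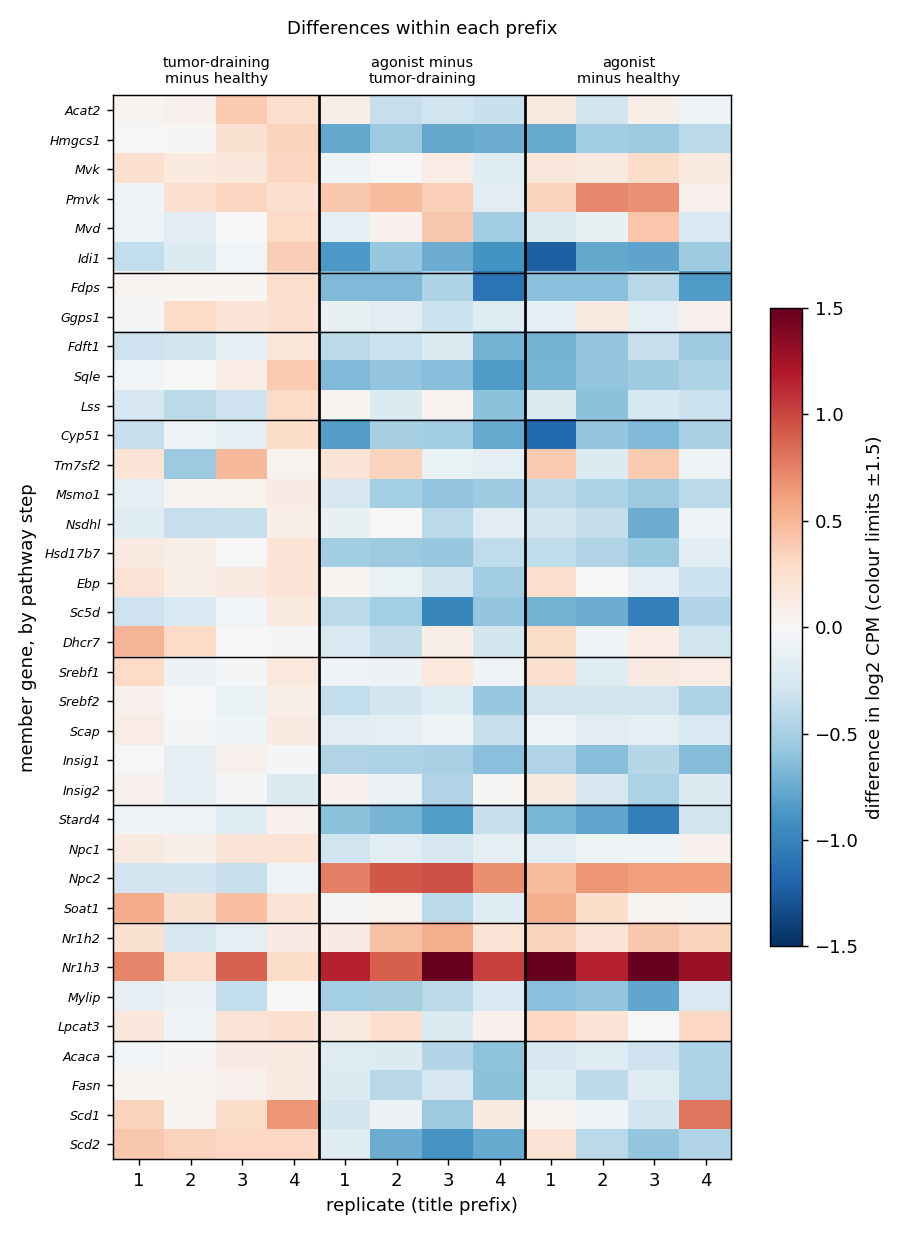
Difference in log2 CPM between the libraries of each prefix (columns, replicates 1 to 4 in each of the 3 comparisons) for the 36 members (rows, by pathway step); red marks a higher and blue a lower level in the group named first. Idi1, Cyp51, Sc5d and Insig1 are negative in all 4 prefixes of both agonist comparisons, and Nr1h3 is positive in all.

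Between the tumor-draining and healthy groups, 0 of 36 members were called, with 0.198% of all genes called, and DESeq2 and limma voom also called 0. At an unadjusted p under 0.05, 2 members (Soat1 and Nr1h3) and 1842 of all genes passed. The median log2 fold change of the members was 0.08, against -0.02 over all genes, and single members ran from -0.24 (Npc2) to 0.50 (Nr1h3). The tumor-draining libraries were wholly above or below the healthy ones in 0 members, against 2.57% and 1.69% of all genes. Within prefixes 12 members were higher in all 4 and 2 lower in all 4, against 19.0% and 17.1% of all genes.

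Ratios within paralog pairs compare levels per length. The TPM of Nr1h2 over that of Nr1h3 averaged 1.57 ± 0.273 (SD, n = 4) in the healthy group, 1.11 ± 0.199 in the tumor-draining group and 0.565 ± 0.163 in the agonist group. It was 1.44, 1.48, 1.97 and 1.37 in healthy replicates 1 to 4, 1.26, 0.930, 0.936 and 1.29 in the tumor-draining ones and 0.528, 0.665, 0.350 and 0.715 with the agonist, with no overlap between any of these groups. In a two-sided exact permutation test each of the 3 comparisons gave p = 0.0286, the smallest that 4 against 4 allows. After Benjamini-Hochberg adjustment over 12 tests it was 0.0857. This test shuffled libraries between groups and did not use the pairing by prefix. Srebf1 over Srebf2 was 2.64 ± 0.427, 2.64 ± 0.232 and 3.33 ± 0.239 (SD, n = 4), and the agonist and tumor-draining groups did not overlap (exact p = 0.0286, adjusted 0.0857). Insig1 over Insig2 (0.660, 0.566 and 0.457) and Scd1 over Scd2 (0.636, 0.610 and 0.856) overlapped in all comparisons (exact p from 0.143 to 0.971). None of the 12 tests passed after adjustment. With 4 libraries in each group, a test at the smallest possible p could not pass unless most of the 12 reached it. No conclusion is therefore drawn from this outcome.

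**Figure D4:**
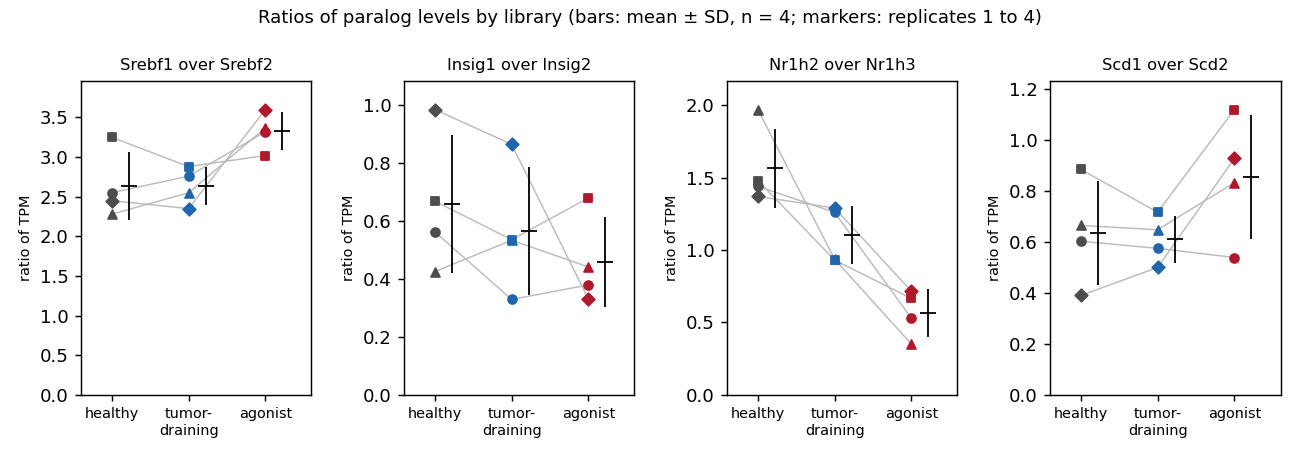
Ratio of TPM within 4 pairs of paralogs (vertical axes, from 0) in each library of the healthy, tumor-draining and agonist groups; black bars are the mean ± SD (n = 4). The Nr1h2 to Nr1h3 ratio steps down from 1.37 to 1.97 in healthy libraries to 0.350 to 0.715 with the agonist.

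By level per length in the healthy group, Npc2 led the members at 171 ± 6.54 TPM (SD, n = 4). Soat1 (76.1 ± 12.7), Nr1h2 (68.0 ± 18.5), Srebf1 (58.3 ± 12.6), Scap (56.7 ± 15.5) and Nr1h3 (44.6 ± 15.5) followed, each within the spread of its neighbour, whereas the lowest Npc2 library, at 163, was above the highest Soat1 library, at 88.9. With the agonist Nr1h3 reached 131 ± 45.3 TPM, second to Npc2 at 250.3 ± 27.0. The sterol synthesis enzymes with the most were Fdps (42.8), Ebp (38.6) and Cyp51 (30.3), and the lowest members were Acat2 (4.00), Hsd17b7 (3.83) and Tm7sf2 (3.64), which did not differ beyond their spread.

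A list of 26 other lipid genes, all of them tested, gave 1 call without the block. Against the tumor-draining group 1 was called higher with the agonist and 0 lower, with 2.68% of all genes called. It was Gramd1b, which moves sterol from the plasma membrane to the endoplasmic reticulum, with means of 67.8 and 107 CPM (0.66 ± 0.15, edgeR adjusted p = 0.0371). Others of small p were the elongase Elovl6 (-0.77 ± 0.27, edgeR adjusted p = 0.185) and the desaturase Fads2 (-0.88 ± 0.33, edgeR adjusted p = 0.230). Both were called lower with the block, which called 2 of the 26 higher and 5 lower, with 13.3% of all genes called. In the other comparisons 0 of 26 were called without the block. With it 4 were higher and 3 lower in the agonist than in the healthy group, with 20.1% of all genes called, and 0 were called between the tumor-draining and healthy groups.

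The calls against the tumor-draining group rested on all libraries to different degrees. Idi1, Npc2 and Nr1h3 were called whichever of the 12 libraries was left out (edgeR adjusted p at most 0.0398, 0.0265 and 0.0267). With the 3 libraries of prefix 2 or of prefix 3 left out, 0 members were called, with edgeR adjusted p of 0.0734 and 0.0582 for Idi1, 0.0880 and 0.107 for Npc2 and 0.0594 and 0.0670 for Nr1h3. Without prefix 4, Npc2 and Nr1h3 were called and Idi1 was not (0.0853). Hmgcs1 kept its call only without tumor-draining replicate 1 and lost it without any other library (up to 0.142). Fdps kept it in 3 of 12 cases, without healthy replicate 1, tumor-draining replicate 1 or agonist replicate 3, and lost it without any other library (up to 0.154). Cyp51 (up to 0.0884) and Sc5d (up to 0.0727) each lost it without tumor-draining replicate 3 or 4 or agonist replicate 1, 2 or 3. Msmo1 lost it without tumor-draining or agonist replicate 2, 3 or 4 (up to 0.0769), and Insig1 without tumor-draining replicate 2, 3 or 4 or agonist replicate 1, 2 or 4 (up to 0.0926). Sqle was called without tumor-draining replicate 1 (0.0341), and Stard4 without agonist replicate 4 (0.0266). Hmgcs1 and Fdps also missed the threshold with DESeq2 size factors and with the 2 groups fitted alone, Fdps with limma voom, and Msmo1 and Insig1 with no filter on low counts. On the deposited TPM only Npc2 of the 36 was called in this comparison (limma adjusted p = 0.00876 with a pseudocount of 1, where Idi1 and Nr1h3 had 0.0682 and 0.0687), whereas counts of coding transcripts alone gave 14 calls. With replicates 1 and 2 only 0 members were called, and with replicates 3 and 4 only 1, Hmgcs1 (edgeR adjusted p = 0.0378).

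Against the healthy group, Idi1, Cyp51, Sc5d, Insig1 and Nr1h3 were called whichever library was left out (edgeR adjusted p at most 0.0128, 0.0256, 0.0193, 0.0456 and 0.00257). Idi1, Sc5d and Nr1h3 were also called whichever prefix was left out, whereas Cyp51 lost its call without prefix 3 (0.0599) and Insig1 without prefix 2 (0.0934) or 3 (0.0518). Msmo1 lost its call without agonist replicate 3 (0.0546), and without prefix 2 (0.0761), 3 (0.087) or 4 (0.0704). Fdft1 kept its call only without tumor-draining replicate 1 or 4 and lost it without any other library (up to 0.146). Stard4 (up to 0.102) and Mylip (up to 0.0962) lost it without healthy replicate 3 or 4 or agonist replicate 1, 2 or 3. Npc2 lost it without healthy replicate 2 or 3 or agonist replicate 3 or 4 (up to 0.0662). With a prefix left out, Fdft1 lost its call in every case (up to 0.195). Stard4 lost it without prefix 1, 2 or 3 (up to 0.204), Mylip without 2 or 3 (up to 0.176) and Npc2 without 2, 3 or 4 (up to 0.207). Fdps was called without healthy replicate 1, tumor-draining replicate 1 or 4, or agonist replicate 3 (lowest 0.0387). Fdft1 also missed the threshold with DESeq2 size factors, limma voom and no filter on low counts, and Npc2 with coding transcripts alone. On the deposited TPM 6 members were called: Idi1, Cyp51, Insig1, Stard4, Npc2 and Nr1h3. With replicates 1 and 2 only 6 members were called (Idi1, Cyp51, Sc5d, Stard4, Nr1h3 and Mylip), and with replicates 3 and 4 only 2 (Idi1 and Nr1h3).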

How the data were processed

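RNA of CD11c cells was measured in 12 libraries, prepared with the Qiagen RNeasy Plus Micro and NEBNext Ultra II Directional kits, per the labels' protocols. The deposited estimated counts, one value per transcript and not normalized, were made by the authors with Salmon and build mm10, according to the submitters' processing notes. The deposited TPM values (abundance corrected for transcript length and scaled per library) came from the same quantification by the authors, per the submitters' processing notes. The sources used here do not give the program version, annotation release, filters or use of strand, and the deposited tables are named for sailfish, a related program. Reads shared by near-identical genes, such as Acat2 and Acat3, Idi1 and its copies, or Scd1 and Scd2, are divided by a model, which makes their split uncertain.

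Of 132374 transcripts, 131974 matched GENCODE M21 (GRCm38) and were summed to 52355 genes and rounded. The 400 left out held 0.116% to 0.147% of a library's counts. The test was edgeR 4.0.16 run in R 4.3.3 (robust quasi-likelihood F test, TMM scaling, filterByExpr with a minimum count of 10) over all 12 libraries, with group as the only term and Benjamini-Hochberg adjustment over 23729 genes. CPM were scaled by TMM. The test was run on simulated counts, with changes set in the agonist group and only its comparison with the tumor-draining group read. These counts held no prefix effect and took their spread from the fit with the block. The check therefore says nothing on how the unblocked fit treats libraries that share a prefix.

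The prefix of the library titles gave the replicate number. Libraries of 1 prefix deviated together from their group means (correlations over genes of 0.20 to 0.47 in 12 pairs), whereas the 36 pairs of different prefixes had a median of -0.24 (range -0.45 to 0.33). The prefix was therefore taken to pair the libraries. The sources used here do not say what it stands for. The same fit with the prefix as a block lowered the biological coefficient of variation from 33.9% to 20.7%, with 6 in place of 9 residual degrees of freedom. No 2 libraries of a group were alike within sampling noise (chi-square per degree of freedom at least 27.7 in 18 pairs).

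The alternatives were the block, DESeq2 1.42.0, limma 3.58.1 (voom, and log2 of TPM plus 1 or 0.1), other size factors, no filter on low counts, coding transcripts only, the 2 groups alone, and leaving out each library or prefix. The fits on replicates 1 and 2 or 3 and 4 only, and the block with DESeq2 size factors, were chosen after seeing the data. The members and lists were chosen with earlier results of these data known. Library by library values are given for the 16 members of smallest unblocked p among those called in either fit in any comparison, and the other members by group means or ranges. Of the 26 other lipid genes at most 4 of smallest p are named per comparison, and 1 that this would name is not reported here.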

Additional observations from a re-analysis of the deposited data

Results flagged for a closer look

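Each member was searched in each group for a library that stood far from the 3 others, which chance alone gives in about 1 in 20 groups. Of 108 groups tested, 2 held such a library. Msmo1 was at 26.8 CPM in agonist replicate 1, where the 3 other agonist libraries held 23.6 to 24.1 CPM. Scd1 was at 47.5 CPM in agonist replicate 1, where the 3 others held 86.8 to 88.5 CPM. In both genes the library stood apart within the agonist group only. Replicate 1 was also the lowest for Scd1 in the healthy group (46.1 CPM) and in the tumor-draining group (57.8 CPM).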

How the results depend on the processing

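With the replicate block, in which the title prefix is a term of the fit, the count of all genes called rose to 1495 between the tumor-draining and healthy groups, 3161 between the agonist and tumor-draining groups and 4781 between the agonist and healthy groups, and that of members to 1, 20 and 20. The replicate block with DESeq2 size factors gave 1816, 3349 and 4787 genes and 1, 21 and 20 members. No call of a member made without the block was lost with it. Without the block, the counts were 47, 635 and 1490 genes and 0, 9 and 10 members.

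Between the tumor-draining and healthy groups, all genes called numbered 368 with DESeq2, 1 with limma voom, 75 with no filter on low counts, 25 with the 2 groups fitted alone, 18 with coding transcripts only and 10 on TPM with either pseudocount. The median log2 fold change of the members there was -0.02 and -0.03 on TPM with a pseudocount of 1 and of 0.1, where counts gave 0.08. Between the agonist and tumor-draining groups, 1186 genes were called with DESeq2, 985 with 14 members on coding transcripts, and 289 and 266 on TPM plus 1 and plus 0.1, each with 1 member. Between the agonist and healthy groups, TPM gave 821 and 818 genes, each with 6 members.

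With replicates 1 and 2 only, the 3 comparisons called 31, 91 and 614 genes, and 0 and 6 members in the agonist comparisons. With replicates 3 and 4 only they called 0, 189 and 808 genes, and 1 and 2 members. The median of the members against the healthy group was then -0.12 and -0.32. Leaving out 1 library or prefix gave 0 to 101, 125 to 547 and 475 to 1535 genes, 0, 0 to 10 and 3 to 11 members, and medians of the members from -0.04 to 0.16, from -0.35 to -0.16 and from -0.39 to -0.16. The cause of these shifts was not tested, beyond the fewer samples of the smaller fits. Over all 36 members, comparisons and alternatives, 2779 of 3024 results kept their side of the threshold, 177 lost a call, 68 gained one and 0 called results reversed. Of the 2779, 132 were uncalled values whose sign differed.

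Each member passed the count filter. What depth limits in the members of lowest count was not tested. The counts share reads among similar genes by a model, and which cells gave the RNA cannot be told from bulk libraries.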
